A study of Mus musculus with 4 samples.

Results

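The genes described here are those of the type I interferon response, 44 genes given by symbol, and they were read in CD8 T cells of the mouse spleen. Each gene was represented by the probe set naming it alone that had the highest mean over the 4 arrays, which gave 42 measured genes among the 18193 genes tested. Isg15 and Ifi44 were the 2 listed genes with no such probe set. Total RNA came from wild-type B6 mice with no treatment listed and an age not given, and was hybridised to 4 Affymetrix arrays, 2 for each of 2 sorted populations. The Ly49+ group consisted of CD44+CD122+Ly49+ cells, labelled CD8+ Treg, and the Ly49- group of CD44+CD122+Ly49- cells, labelled as conventional memory type. CD44 marks antigen-experienced T cells, CD122 is the beta chain shared by the interleukin-2 and interleukin-15 receptors, and the Ly49 molecules are receptors for MHC class I that natural killer cells also carry. Whether the 2 samples of a group were taken from different animals is not stated, so each p-value reflects no more than how far these samples differ, which may be technical variation. In a sorted bulk sample, fewer cells of a type and less RNA per cell cannot be told apart.

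Type I interferons bind the receptor IFNAR1-IFNAR2, whose kinases JAK1 and TYK2 activate the factor ISGF3, of which STAT2 and IRF9 are subunits. ISGF3 binds the interferon-stimulated response element (ISRE) in the promoters of the induced genes. The products block viral entry, replication and release, sense viral RNA, conjugate the ubiquitin-like ISG15 to proteins, or feed back on the pathway. Many of them, above all the immunity-related and guanylate-binding GTPases, are also induced by interferon-gamma through gamma-activated sites (GAS).

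The arrays matched their labels in the T-cell and sort genes. Cd3d, Cd3e, Cd3g, Cd8a, Cd8b1 and Cd5 had log2 fold changes between -0.07 and 0.09, none past the threshold, and the Ly49 gene Klra7 was higher in Ly49+ cells by 3.28 on the log2 scale. Of 15 measured macrophage and monocyte markers, 14 were called higher on the Ly49+ arrays and none was called lower. The remaining marker, Ctss, lay slightly lower without overlap, at 15639 and 15581 against 16046 and 15995 (log2 fold change -0.04, limma adjusted p = 0.61). The summed intensity of the 15 markers was 46559 and 50290.5 on the Ly49+ arrays against 36221 and 36014 on the Ly49- arrays. None of the 15 read below the level of the bacterial controls, given below, in both groups. Of 10 dendritic cell markers 5 were called higher and none lower, and of 10 natural killer cell markers 7 were called higher and none lower. Gzma, among the natural killer cell markers, lay lower without overlap and just missed the threshold (log2 fold change -0.95, limma adjusted p = 0.051). Some markers of other cells were called lower on the Ly49+ arrays, as some interferon response genes were. Among 8 neutrophil markers S100a8 (log2 fold change -0.49, limma adjusted p = 0.029) and S100a9 (-0.53, limma adjusted p = 0.0082) fell and none rose. Among 5 plasma cell markers Igha fell (-1.11, limma adjusted p = 0.0014) and none rose. The 11 B-cell markers leaned higher, with a positive log2 fold change for 8. Of these 11, Cd22 (1.05, limma adjusted p = 0.00012) and Ly86 (0.70, limma adjusted p = 0.0020) rose, and Cd79b fell (-0.28, limma adjusted p = 0.027). The part of these cells in the differences given below was not tested. The highest reading among 27 probe sets for bacterial control transcripts was 70.3, and all 42 interferon response genes read above it on every array. For Actb, the signal toward the 3' end divided by that toward the 5' end gave 1.26 and 1.29 for Ly49+ samples and 1.37 and 1.34 for Ly49- samples. Ly49- replicate 1 stood apart in the older hybridisation controls, with BioB-3 at 702 against 2750 to 3084 on the other arrays, while the newer bioB-3 control read 2833 to 3111 on all 4.

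Interferon response genes leaned lower in Ly49+ cells, by small amounts. Differences were tested on log2(intensity + 16) with limma, adjusted by Benjamini-Hochberg over all genes, with a threshold of 0.05. Of the 42 genes, 6 fell in Ly49+ cells (Bst2, Isg20, Oas2, Gbp2, Oasl2 and Igtp), 1 rose (Ifitm3) and 35 did not pass. Of all genes tested, 2.07% fell and 1.93% rose, and among the 11534 genes with a mean intensity of at least 100, to which all 42 belong, 3.16% fell and 2.75% rose. The median log2 fold change was -0.13 over the 42 genes, -0.04 over all genes and -0.05 over the genes of at least 100. The log2 fold change was negative for 36 of the 42, against 65.3% of all genes and 68.4% of those of at least 100. At an unadjusted p under 0.05, 21 of the 42 were lower and 2 higher, against 13% and 5.07% of all genes. Both Ly49+ arrays lay below both Ly49- arrays for 32 of the 42 genes (76.2%), against 35.2% of all genes and 41.8% of those of at least 100. Both lay above for 3 genes, Ifitm3, Oasl1 and Ifi35, against 13.2% of all genes. Without any 1 of the arrays, which leaves 1 array in a group, most calls were lost, both among the 42 genes and over all genes. The median log2 fold change then ran from -0.14 to -0.10 over the 42 genes and from -0.05 to -0.04 over all genes. After quantile normalization 3 still fell (Bst2, Isg20 and Oas2), and the calls over all genes went from 376 lower and 352 higher to 190 lower and 367 higher. The median was then -0.07 over the 42 genes and -0.01 over all genes.

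**Figure D1:**
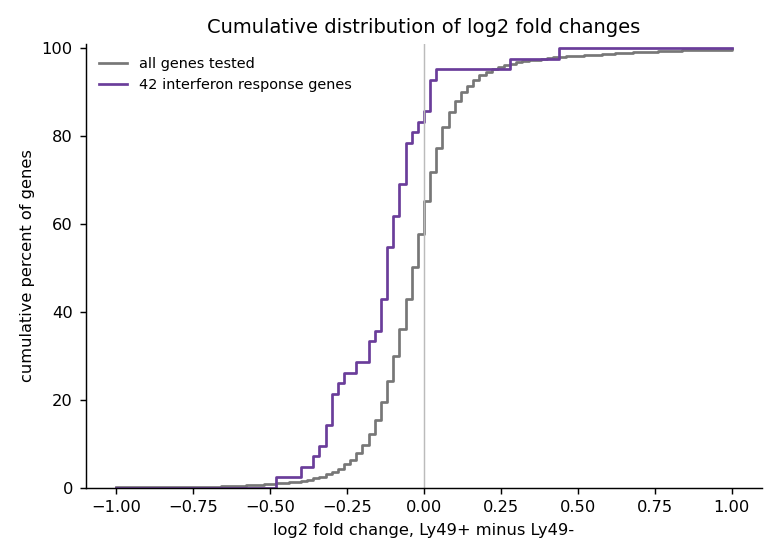
Cumulative percent of genes (y axis) at or below each log2 fold change of Ly49+ against Ly49- cells (x axis), for the 42 interferon response genes (purple) and all 18193 genes tested (grey). The purple curve lies to the left: 28.6% of the 42 genes had a log2 fold change of -0.2 or less, against 9.76% of all genes, and from 0.2 upward the curves run close together.

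The oligoadenylate synthetase family, enzymes that answer double-stranded RNA by making the activator of RNase L, had 2 of its 5 genes lower and none higher. Of all genes tested, 2.07% were called lower. Oas2 had the largest fall of the 42 genes. Its intensity was 742 and 797 on the Ly49+ arrays against 1037 and 1139 on the Ly49- arrays, 1.41-fold lower (log2 fold change -0.49 ± 0.08 SE, limma adjusted p = 0.015). The highest Ly49+ reading lay well under the lowest Ly49- reading. Oasl2, a family member with ubiquitin-like domains, read 678 and 721 against 898 and 925, 1.30-fold lower (-0.38 ± 0.08 SE, limma adjusted p = 0.040). Its groups did not overlap either. Oasl1, a relative known for restraining translation of the interferon regulator IRF7, went the other way, at 554 and 557 against 413 and 510, and did not pass (0.27 ± 0.11 SE, limma adjusted p = 0.26). Oas1a, at 1789 and 1787 against 1864 and 1903, and Oas3, at 5884 and 5584 against 5798 and 5864, differed by -0.07 and -0.02. The Oas3 groups overlapped. Leaving out Ly49+ replicate 1, Ly49+ replicate 2, Ly49- replicate 1 or Ly49- replicate 2 gave adjusted p of 0.12, 0.063, 0.079 and 0.16 for Oas2 and 0.26, 0.13, 0.14 and 0.23 for Oasl2. Oas2 had 0.051 and Oasl2 0.062 without a trend of the spread, and for Oasl2 quantile normalization gave 0.11 and the larger pseudocount of 64 gave 0.056.

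Among the 10 genes that restrict viruses directly, 2 fell and 1 rose, beside 2.07% and 1.93% of all genes tested. Bst2, which encodes tetherin, the membrane protein that holds budding virions on the cell, read 2797 and 2866 in Ly49+ against 3489 and 3569 in Ly49- cells, 1.25-fold lower (log2 fold change -0.32 ± 0.05 SE, limma adjusted p = 0.011). The gap between the groups was several times the gap within them. Isg20, an exonuclease that degrades RNA, read 1039 and 1056 against 1379 and 1426, 1.33-fold lower (-0.42 ± 0.07 SE, limma adjusted p = 0.013). Its arrays also separated by group. Ifitm3, which blocks the fusion of viruses entering through endosomes, rose 1.36-fold, from 1071 and 1115 in Ly49- to 1397 and 1583 in Ly49+ cells (0.44 ± 0.08 SE, limma adjusted p = 0.020). It was the only one of the 42 genes called higher, on the arrays where 14 of 15 macrophage and monocyte markers were higher, and their part in its rise was not tested. Bst2 is at the same time a marker of plasmacytoid dendritic cells and was the only lower call among their 8 markers, while Irf8 was higher (log2 fold change 0.55, limma adjusted p = 0.0062) and the other 6 did not pass. Of these 6, Siglech read 124 and 135 against 147 and 124, and Pacsin1 was nearest to passing (-0.26, limma adjusted p = 0.077). Leaving out Ly49+ replicate 1, Ly49+ replicate 2, Ly49- replicate 1 or Ly49- replicate 2 gave adjusted p of 0.11, 0.080, 0.080 and 0.11 for Bst2, 0.10, 0.088, 0.087 and 0.12 for Isg20, and 0.039, 0.17, 0.13 and 0.14 for Ifitm3. Without a trend of the spread, Bst2 had 0.076 and Ifitm3 0.075, and Isg20 still passed at 0.041.

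**Figure D2:**
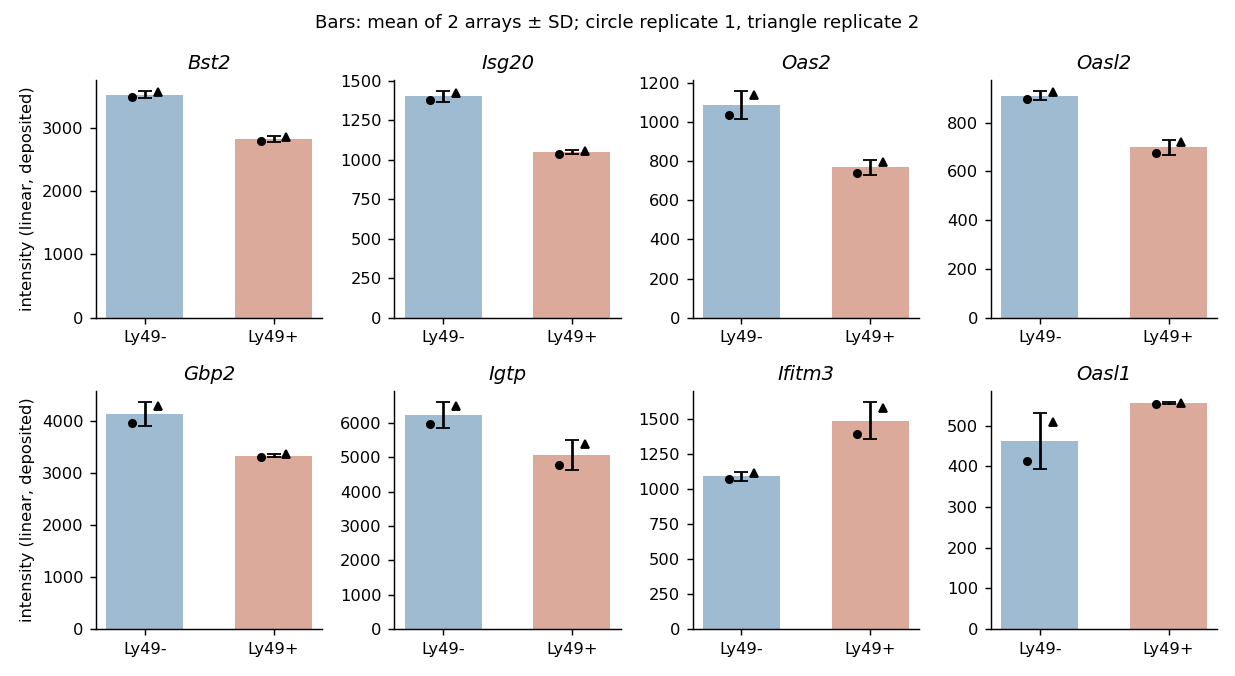
Deposited linear intensity (y axis, starting at 0) of the 7 genes past the threshold and of Oasl1, in Ly49- (blue) and Ly49+ (red) cells, with bars for the mean of 2 arrays, error bars for the SD, circles for replicate 1 and triangles for replicate 2. In the 6 genes that fell, both Ly49+ points lie below both Ly49- points, and in Ifitm3 both lie above, while the Ly49- points of Oasl1 are spread from 413 to 510.

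The other genes of this group did not pass. Cmpk2, a mitochondrial nucleotide kinase next to Rsad2 in the genome, read 654 and 604 against 791 and 806 (log2 fold change -0.34, limma adjusted p = 0.071). Mx2, a dynamin-like GTPase, read 251 and 285 against 327 and 370 (-0.36, limma adjusted p = 0.14), and its relative Mx1 differed by -0.15 (limma adjusted p = 0.16). Samhd1, which depletes the nucleotides that reverse transcription needs, differed by -0.12, from 11110 and 11217 in Ly49+ to 11973 and 12276 in Ly49- cells (limma adjusted p = 0.12). All 4 of these genes lay lower in Ly49+ cells without overlap, as did 41.8% of genes with a mean intensity of at least 100. Rsad2, which encodes viperin, differed by -0.09. Ly6e, a surface protein that limits coronavirus fusion, read 23199.7 and 22700.4 against 23130.3 and 23300.5 (-0.02), and Trim30a, a member of the tripartite motif family, 11689.7 and 11747 against 11832 and 11502 (0.01). The Ly6e and Trim30a groups overlapped. The IFIT genes, whose products bind viral RNA, were all on the lower side and none passed. A negative log2 fold change was found in 68.4% of genes with a mean intensity of at least 100. Ifit3 read 4834 and 5304 against 5734 and 6538 (-0.27, limma adjusted p = 0.073), Ifit1 1414 and 1694 against 1777 and 2091 (-0.31, limma adjusted p = 0.15), and Ifit2 differed by -0.07.

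Of the 7 genes of nucleic acid sensing, 6 lay lower in Ly49+ cells without overlap. Of genes with a mean intensity of at least 100, 41.8% did so. None of the 7 passed. Ifih1, which encodes the RNA sensor MDA5, came nearest, at 1019 and 1144 against 1323 and 1407 (log2 fold change -0.33 ± 0.08 SE, limma adjusted p = 0.061). Adar, the RNA-editing enzyme that keeps cellular RNA from being sensed, read 2572 and 2669 against 2973 and 3015 (-0.19, limma adjusted p = 0.094). Ddx58, which encodes RIG-I, differed by -0.13, Dhx58, which encodes LGP2, by -0.15, the RNA-dependent kinase gene Eif2ak2 by -0.14 and the Z-nucleic acid sensor gene Zbp1 by -0.11, with adjusted p between 0.21 and 0.35. Trim25, the ubiquitin ligase that acts on RIG-I, read 8913 and 9332 against 9054 and 9109 (0.01), with overlapping groups. In the ISG15 system, Herc6, the ISG15 ligase of mice, differed by -0.14, and Usp18, which removes ISG15 and blocks IFNAR2 signalling, by -0.07. The single probe set for Isg15 is listed with a second symbol, Gm9706, and was therefore not used for the gene. It read 936 and 1140 against 1128 and 1298 (-0.23, limma adjusted p = 0.47 when probe sets were tested singly). Stat2, the signalling subunit of ISGF3, differed by -0.07 with overlapping groups.

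All 5 interferon-inducible GTPase genes lay lower in Ly49+ cells without overlap, and 2 of them passed. Of genes with a mean intensity of at least 100, 41.8% lay lower without overlap and 3.16% were called lower. Gbp2, a guanylate-binding protein that attacks the vacuoles of intracellular pathogens, read 3308 and 3359.6 against 3969 and 4289.8, 1.24-fold lower (log2 fold change -0.31 ± 0.05 SE, limma adjusted p = 0.018). Igtp, which encodes the immunity-related GTPase IRGM3, read 4762 and 5375 against 5968 and 6488, 1.23-fold lower (-0.30 ± 0.07 SE, limma adjusted p = 0.044). The lowest Ly49- array lay above the highest Ly49+ array in both genes. Gbp3 differed by -0.17, Irgm1 by -0.13 and Ifi47, at 11386 and 11813 against 12089.7 and 12469, by -0.08, with adjusted p between 0.23 and 0.31. Leaving out Ly49+ replicate 1, Ly49+ replicate 2, Ly49- replicate 1 or Ly49- replicate 2 gave adjusted p of 0.14, 0.11, 0.061 and 0.14 for Gbp2 and 0.28, 0.046, 0.12 and 0.30 for Igtp. After quantile normalization Gbp2 had 0.062 and Igtp 0.12, without a trend 0.11 and 0.19, and for Igtp the pseudocount of 64 gave 0.053. Averaging each gene's probe sets gave 0.069 for Igtp, which has 1 probe set and kept its fold change.

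Of the ADP-ribosyltransferase genes, Parp9 read 3783 and 3930.1 against 4267 and 4572 (log2 fold change -0.20, limma adjusted p = 0.091) and Parp14 5939.7 and 6767 against 7194 and 7589 (-0.22, limma adjusted p = 0.10). Dtx3l, the ubiquitin ligase that pairs with PARP9, read 11411 and 12190.0 against 12379 and 11926 (-0.04), so its groups overlapped. Pml, the scaffold of nuclear bodies, differed by -0.11. Sp100, another nuclear body protein, read 12611 and 12581 against 12726 and 12369 (0.01), also with overlap. The remaining genes, Rtp4, a chaperone of membrane receptors, Xaf1, a partner of the apoptosis inhibitor XIAP, and Tor3a, an ATPase of the endoplasmic reticulum, differed by -0.13, -0.10 and -0.14, and Ifi35, at 12059.5 and 11769 against 11652 and 11705, by 0.03, with adjusted p from 0.21 to 0.74. In all, 14 of the 42 genes differed by less than 0.1 in either direction.

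**Figure D3:**
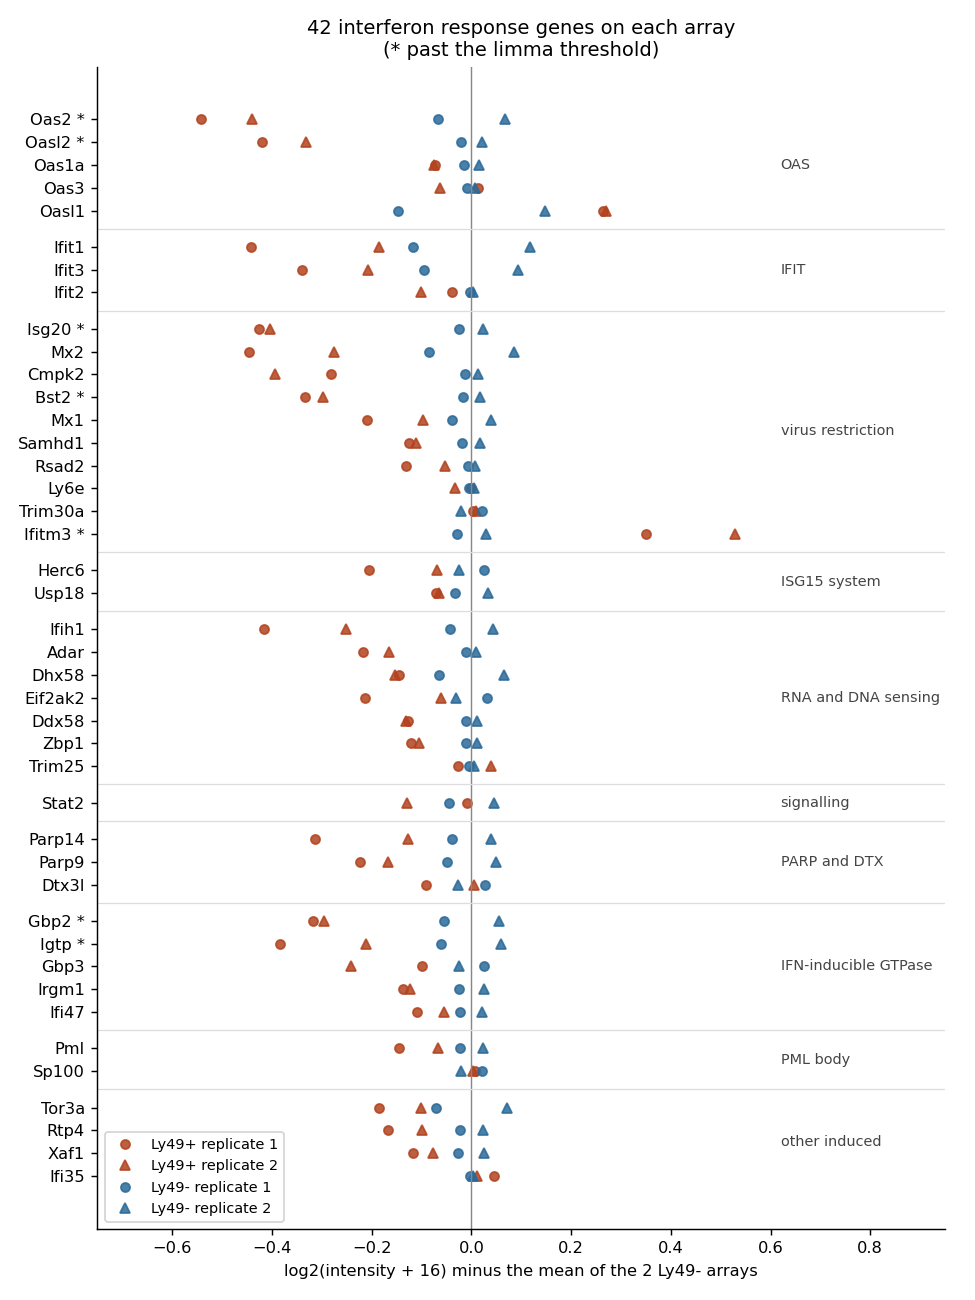
The 42 interferon response genes (rows, grouped by role) on each of the 4 arrays, as log2(intensity + 16) minus the mean of that gene's 2 Ly49- arrays (x axis); red points are Ly49+ and blue points Ly49- arrays, circles replicate 1 and triangles replicate 2, and an asterisk marks the 7 genes past the limma threshold. Red points lie left of both blue points in 32 rows and right of both in 3 (Ifitm3, Oasl1 and Ifi35), and in 27 rows the replicate 2 array read higher than the replicate 1 array in both groups.

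The promoters of 6 genes that passed and of Ifit3 are shown to set these differences beside the letters of the ISRE and GAS elements. Oas2 is not among them. RefSeq promoter windows (GRCm38.p6, 250 bases before to 50 after the start) held 33 of the 44 genes. An ISRE core, searched as GAAA, any 2 bases and GAAA again on both strands, with overlapping matches counted, occurred in 17 of the 33 genes (51.5%) and in 3.99% of all 27025 genes in the table. The GAS letters TTCNNNGAA, the same on both strands, occurred in 10 of the 33 (30.3%) and in 9.55% of all. The windows below end at the base before the start, except that of Ifitm3, which holds the first 30 transcribed bases, and capitals mark ISRE and GAS matches. Bst2 (chr8:71537473-71537632, minus strand) has a GAS match running into a pair of overlapping ISRE matches, so its capitals form 1 block. Gbp2 (chr3:142620503-142620662, plus strand) and Igtp (chr11:58199396-58199555, plus strand) have 1 ISRE match each, and Igtp a GAS match just before it. Ifit3 (chr19:34583369-34583528, plus strand), which did not pass, has 2 ISRE matches. Isg20 (chr7:78913264-78913423, plus strand) has a GAS match, and Oasl2 (chr5:114896774-114896933, plus strand) has neither in these 160 bases. Ifitm3 (chr7:141010715-141010744, minus strand), which rose, has 2 ISRE matches and a GAS match that overlaps the second of them.
Bst2: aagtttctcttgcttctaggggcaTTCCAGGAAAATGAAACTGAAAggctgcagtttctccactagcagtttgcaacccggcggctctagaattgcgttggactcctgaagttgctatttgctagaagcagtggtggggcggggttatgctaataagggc
Gbp2: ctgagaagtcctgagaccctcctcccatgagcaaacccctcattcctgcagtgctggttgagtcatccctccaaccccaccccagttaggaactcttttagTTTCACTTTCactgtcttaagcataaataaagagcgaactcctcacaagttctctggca
Igtp: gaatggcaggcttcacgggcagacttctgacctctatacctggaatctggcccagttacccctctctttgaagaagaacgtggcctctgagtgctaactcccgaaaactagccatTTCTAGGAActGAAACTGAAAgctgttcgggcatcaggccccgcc
Ifit3: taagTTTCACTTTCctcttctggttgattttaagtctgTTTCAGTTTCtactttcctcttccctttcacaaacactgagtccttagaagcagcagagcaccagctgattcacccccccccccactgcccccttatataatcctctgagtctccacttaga
Isg20: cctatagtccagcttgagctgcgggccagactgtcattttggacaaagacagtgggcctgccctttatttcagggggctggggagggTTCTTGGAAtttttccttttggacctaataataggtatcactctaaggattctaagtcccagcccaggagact
Oasl2: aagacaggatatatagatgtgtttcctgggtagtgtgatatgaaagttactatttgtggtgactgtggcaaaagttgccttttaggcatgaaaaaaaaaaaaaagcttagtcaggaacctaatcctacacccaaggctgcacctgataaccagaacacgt
Ifitm3: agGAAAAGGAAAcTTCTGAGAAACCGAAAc
ISRE matches thus stand both in genes that fell and in the gene that rose. The 16 measured genes with an ISRE match had a median log2 fold change of -0.13 and the 15 measured genes in the table without one -0.10. Of the former 4 passed the test and of the latter 2. A match is a description of the letters and not a measured binding site.

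Genes with several probe sets did not always move as one. Of the 42 genes, 20 had 1 probe set and 22 several, and in 10 of these 22 the probe sets differed in sign. A second probe set read higher in Ly49+ cells in Parp14 (log2 fold change 0.18, limma adjusted p = 0.48 among singly tested probe sets), Eif2ak2 (0.22, limma adjusted p = 0.21) and Dtx3l (0.19, limma adjusted p = 0.16), and so did 1 of the 3 probe sets of Pml (0.32, limma adjusted p = 0.40). The probe sets used for these 4 genes read lower, at -0.22, -0.14, -0.04 and -0.11. Averaging the probe sets of a gene left Parp14 at -0.021 (limma adjusted p = 0.87), Eif2ak2 at -0.033 (limma adjusted p = 0.83) and Adar, with 3 probe sets, at -0.053 (limma adjusted p = 0.67), and turned Pml to 0.047 and Dtx3l to 0.071. In Sp100 the probe sets differed in size: the brighter was at 0.01, while the other read 1265 and 1311 in Ly49+ against 1661 and 1811 in Ly49- cells (-0.43 ± 0.08 SE, limma adjusted p = 0.058 among singly tested probe sets). Their average was called lower (-0.21, limma adjusted p = 0.049). The second probe set of Gbp2 followed the first, at -0.29. When each of 45037 probe sets was tested on its own with limma, none of the 78 naming 1 of the 42 genes passed, with a smallest adjusted p of 0.052 for Bst2, and 0.429% of all probe sets were called lower and 0.766% higher. At an unadjusted p under 0.05, 21 of the 78 were lower and 3 higher, against 7.97% and 5.37% of all probe sets. With a robust estimate of the spread, 4 of the 78 were called lower.

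Upstream of these genes, the signalling chain showed no gene past the threshold. Of 9 receptor and kinase genes, 7 STAT and IRF genes and 8 inhibitor genes, none was called in either direction by limma. Over all genes tested only 4% were called in either direction, so lists this short hold few calls or none. At an unadjusted limma p under 0.05 there were 1 lower and 2 higher in these lists, against 13% and 5.07% of all genes. Ifnar1 read 3630.4 and 3523 against 3794 and 3880.1 (log2 fold change -0.10, limma adjusted p = 0.33) and Ifnar2 3648 and 3639 against 3369.6 and 3474 (0.09, limma adjusted p = 0.38). Neither receptor subunit passed, and averaging its 3 probe sets turned Ifnar2 to -0.086. Jak1 differed by 0.02, Tyk2 by -0.13, Irf9 by -0.02 and Irf7, which amplifies interferon production, by -0.14. Irf3, the factor that first switches on interferon genes, had the smallest p of these 3 lists (log2 fold change -0.17, limma adjusted p = 0.093, in a probe set that may cross-hybridise). Of 10 measured interferon genes, 6 read below the bacterial control level in both groups, Ifnb1 among them, and none passed. Ifng, which encodes interferon-gamma, read 8418 and 3245 in Ly49+ against 7506 and 3924 in Ly49- cells, so its arrays differed by replicate number and not by group (-0.05, limma adjusted p = 0.97).

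Outside the 42 genes, 40 further interferon-induced genes were measured, of which 3 fell, none rose and 37 did not pass. Of all genes tested, 2.07% fell and 1.93% rose. The median of the 40 was -0.06, near the -0.05 of genes with a mean intensity of at least 100. Of the 40, 45% lay lower without overlap, near the 41.8% of genes of at least 100. Iigp1, an immunity-related GTPase, had the largest fall, at 135 and 126 against 231 and 280.4, 1.85-fold lower (log2 fold change -0.88 ± 0.13 SE, limma adjusted p = 0.0064). Both Ly49- readings lay well above both Ly49+ readings. Gbp6 read 4126 and 3998 against 5109 and 5078, 1.25-fold lower (-0.33 ± 0.05 SE, limma adjusted p = 0.0064), and Slfn1, a schlafen family gene, 6932 and 7274 against 8036 and 8408, 1.16-fold lower (-0.21 ± 0.05 SE, limma adjusted p = 0.039). Irgm2 (-0.31, limma adjusted p = 0.081) and Daxx (-0.24, limma adjusted p = 0.078) did not pass. Ifi204 (0.46, limma adjusted p = 0.054) and Ifitm2, a relative of Ifitm3 (0.42, limma adjusted p = 0.071), were on the higher side without passing. Each has 1 probe set, so averaging the probe sets of each gene left their fold changes as they were. Both were called higher under that setting (limma adjusted p = 0.045 and 0.042), in which only the values of other genes differed. Among 9 sensors and adaptors of interferon induction 1 rose: Tlr3, the endosomal receptor for double-stranded RNA, read 1798 and 2045 against 1112 and 1237, 1.63-fold higher (0.70 ± 0.08 SE, limma adjusted p = 0.0033). Its probe set carries a name of the kind that may also detect other transcripts, and without such probe sets the gene still passed (adjusted p = 0.0067). On the same arrays 14 of the 15 macrophage and monocyte markers were called higher, with a median log2 fold change of 0.70 over the 15. The part of these markers' cells in the rises of Tlr3, Ifitm3, Ifi204 and Ifitm2 was not tested. Leaving out Ly49+ replicate 1, Ly49+ replicate 2, Ly49- replicate 1 or Ly49- replicate 2 gave adjusted p of 0.0087, 0.030, 0.067 and 0.049 for Tlr3, 0.029, 0.048, 0.0501 and 0.091 for Iigp1, 0.044, 0.079, 0.071 and 0.074 for Gbp6, and 0.29, 0.12, 0.11 and 0.23 for Slfn1. Without a trend Gbp6 had 0.070 and Slfn1 0.21, and for Slfn1 quantile normalization gave 0.093 and averaging its probe sets 0.60.

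**Figure D4:**
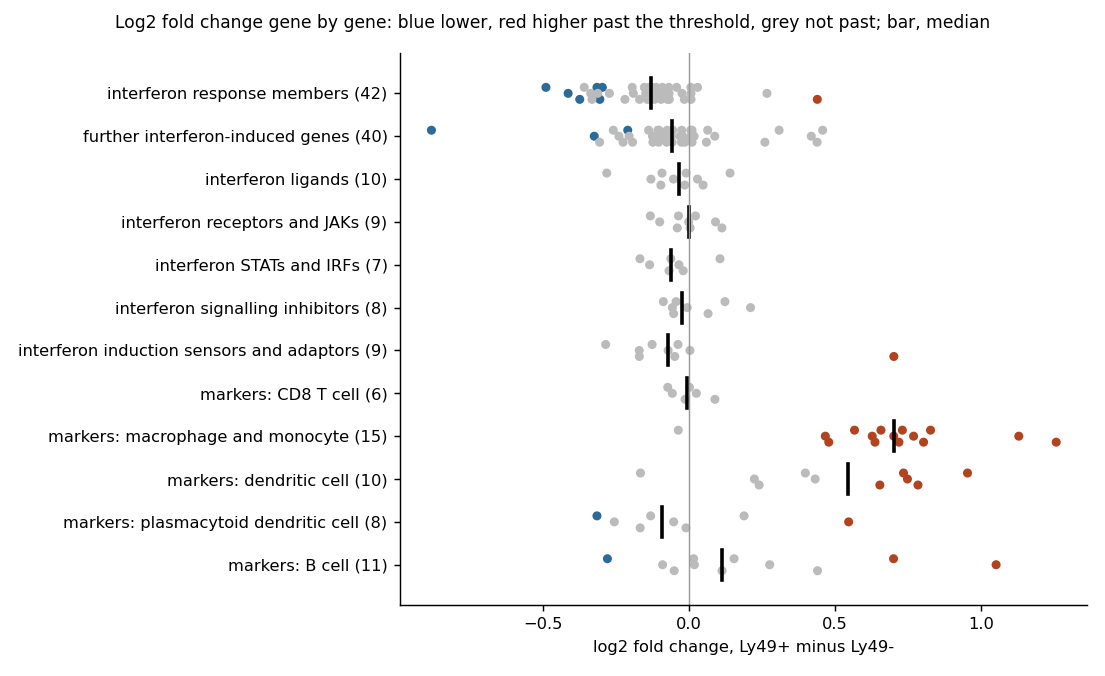
Log2 fold change of Ly49+ against Ly49- cells (x axis) for each gene of the interferon lists and of 5 marker lists (rows, number of measured genes in brackets); blue points were called lower, red points higher and grey points did not pass, and black bars are medians. The interferon response row has its median at -0.13 with 6 blue points and 1 red, the receptor and kinase row is centred on 0, and 14 of the 15 macrophage and monocyte markers are red.

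The spread between the arrays of a group was itself partly shared by these genes. The array titled replicate 2 read higher than that titled replicate 1 for 31 of the 42 genes in Ly49+ cells and for 36 in Ly49- cells, and for 27 in both. Over all genes, 50.6% and 49.5% were higher on the replicate 2 array, and 26.5% in both groups. The median difference between the arrays of a group was 0.05 on the log2 scale in each group for the 42 genes, and 0.00 for all genes. Ifit1 shows it, with 1414 and 1694 in Ly49+ and 1777 and 2091 in Ly49- cells. The difference between the groups exceeded the gap within either group for 32 of the 42 genes, against 36.2% of all genes.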

How the data were processed

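RNA of 4 samples, 2 of each group by the sample titles, was measured. The authors deposited 1 linear intensity per probe set and array. These ran from 8.32 to 43959, with array medians of 188.5 to 190.4, so the arrays had been scaled alike before deposit, by a method not given in the sources used here. Per the labels, RNA was extracted with RNeasy columns and labelled with biotin by the Affymetrix protocol. Probe sets were named through a platform annotation of 2016: of 45101, 34945 had 1 symbol, 932 several, 9160 were not listed and 64 were controls. Gene IDs of 34741 matched the RefSeq list (GRCm38.p6), which changed 0 symbols.

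Per gene the probe set with the highest mean log2 value was kept. Values were taken as log2(intensity + 16) without renormalizing, which understates the fold changes of dim genes. Groups were compared with limma 3.58.1 in R 4.3.3 (group as the only term, trended spread; degrees of freedom 2 residual, 6.70 prior), and p was adjusted by Benjamini-Hochberg over all 18193 genes. The test was tried on simulated data. The number of arrays limits the precision. The genes, the lists and the rule for named genes were chosen with earlier results of these data known. All 44 genes are accounted for by name. Array values are given for the genes past the threshold, the next 8 by p, the 3 largest positive and the 8 brightest, and for others where a text point needed them. Of the other pathway genes, those past the threshold, a fixed set of signalling genes and some of the next 4 by p of each list are named. Alternatives were pseudocounts of 1 and 64, quantile normalization, a minimum mean intensity of 100, averaging the probe sets of each gene, dropping those named _x_at or _s_at, no trend, a robust spread, a threshold of 0.1, the replicate number as a block, and omitting arrays 1 by 1. A group left with 1 array was then assumed to have the spread of the other.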

Additional observations from a re-analysis of the deposited data

How the results depend on the processing

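Over the alternatives the median of the 42 genes lay between -0.14 and -0.07, the latter after quantile normalization. With every array kept, the genes lower without overlap numbered 23 to 33. The 23 came from quantile normalization, under which the median over all genes was -0.01. Leaving out 1 array gave 34 or 35, but with fewer arrays any gene separates more easily. The matching share of all genes was not counted under the alternatives. These counts therefore do not show whether the 42 genes were stable. Of the 14 alternatives, 8 change the fold change of a called gene at all, and under these none of the 7 changed sign. The counts moved more. Against 6 lower and 1 higher, the calls were 3 lower after quantile normalization, 1 lower and 0 higher without a trend, and 11 lower at an adjusted p under 0.1. Without 1 array, which leaves 1 array in a group, most calls were lost among the 42 genes and over all genes. With the replicate number as a block, 14 fell and 1 rose, the added calls being Adar, Cmpk2, Ifih1, Mx1, Parp9, Parp14, Ifit1 (limma adjusted p = 0.0047) and Ifit3 (0.0010), and of the other pathway genes 9 fell and 5 rose, while 10 member probe sets fell. The titles share replicate numbers without saying what they pair, and over all genes the same-numbered arrays' deviations correlated at 0.24, a hint from the data only. Calls over all genes went from 376 lower and 352 higher to 911 and 616 with the block. They went to 752 and 504 at an adjusted p under 0.1, and to 153 and 218 without a trend.

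For the other pathway genes, 3 lower and 1 higher became 1 lower and 2 higher without a trend and 7 lower and 3 higher at 0.1. The higher count was 3 with a robust spread or the mean of probe sets, and 2 with a pseudocount of 64 or a minimum of 100. Without 1 array fewer of these genes were called lower and no more were called higher, and calls fell over all genes too. The 0 member probe sets called lower became 4 with a robust spread and 5 at 0.1. The cause of these moves was not tested.

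Some genes that did not pass turned sign. With the mean of probe sets, log2 fold changes were 0.047 for Pml, 0.071 for Dtx3l, 0.013 for Stat2, -0.015 for Ifi35, -0.21 for Sp100, -0.086 for Ifnar2, -0.000177 for Jak1 and 0.081 for Irf5. Quantile normalization gave 0.0010 for Stat2, 0.0087 for Oas3 and 0.024 for Irf9, and Ifi35 was -0.067 without cross-hybridising probe sets. Without 1 array, values ran from -0.090 to 0.0047 for Dtx3l, -0.062 to 0.013 for Oas3, -0.014 to 0.027 for Trim30a, -0.015 to 0.026 for Sp100, -0.027 to 0.039 for Trim25, -0.0074 to 0.050 for Jak1 and -0.20 to 0.0047 for Ifna2.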
